A study of Mus musculus with 6 samples.

Results

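The fibroblast growth factor (FGF) family was followed in cultured mouse cortical neurons in which Cugbp1 had been lowered with a short hairpin RNA (shRNA). Cugbp1 is the older name of Celf1, which encodes an RNA-binding protein of splicing, mRNA decay and translation. The 33 genes were taken by symbol from the platform's probe annotation, out of 22071 genes it names: 18 FGF ligands, 4 intracellular FGFs, 5 receptors, 2 FGF binding proteins, 2 receptor adaptors and 2 klotho coreceptors. The genes were chosen by symbol alone, but the family as a whole was selected on measured values of this same comparison, namely the lower Fgfbp3. The Fgfbp3 values are therefore given without a test, counts that include it are descriptions, and p values of the other members are not independent support.

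Groups of 3 arrays each were compared. The Cugbp1_shRNA arrays came from primary cortical neurons given a lentivirus with an shRNA against mouse Cugbp1, and the control_shRNA arrays from the same kind of culture given a lentivirus with a control shRNA. All cells were from C57BL/6 embryos at embryonic day 15, were freed of meninges, and were grown with BDNF, CNTF and overnight AraC, which removes dividing cells. Virus was applied on day 5 for 4 hours and RNA was collected on day 11. The number of hairpins used is not stated in the labels, and effects of the hairpin other than the loss of Celf1 cannot be told apart from it. For replicates 2 and 3 of either group the treatment text speaks of Tdp-43 as the shRNA target, whereas their titles name Cugbp1 or control. The series text calls the cells motor neurons and counts the 11 days from the transfer of virus, and titles and protocols were followed here.

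Secreted FGFs bind receptor tyrosine kinases (Fgfr1 to Fgfr4) together with heparan sulfate on the cell surface. The activated receptor phosphorylates the docking protein Frs2, which recruits Grb2 and Shp2 and so switches on the ERK and PI3K pathways. In the developing cortex this signalling is known for keeping progenitors and for patterning, and in neurons FGFs act on axons and synapses. The intracellular FGFs, Fgf11 to Fgf14, are not secreted and bind the tails of voltage-gated sodium channels. FGF binding proteins release FGFs from the matrix, and the klothos let endocrine FGFs act on their receptors.

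Values are log2 expression values, 1 per gene and array, summarised from exon probe sets. A probe set was kept when its mean over the 6 arrays reached the median of all probe sets, 5.73. Of the 403 probe sets of the 33 genes 322 were kept, and 30 genes had at least 3 of them. Fgf7, Fgfbp1 and Klb had 2 each and were read from a separate fit, so every one of the 33 genes has a value. The arrays carry no detection call, and levels of different genes rest on different probes. Levels are therefore compared between groups only, and a level does not show that a transcript was present.

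Celf1 checked the labels. It was at 9.59, 9.40 and 9.33 in replicates 1, 2 and 3 of Cugbp1_shRNA, against 10.85, 10.79 and 10.75 in control_shRNA, a log2 change of -1.36 (limma, adjusted p = 0.0124). Of 15 pan-neuronal markers 14 were measured, at control means of 9.05 to 13.2. Their mean was 11.88 to 11.96 in Cugbp1_shRNA arrays and higher than that, up to 12.15, in all 3 control_shRNA arrays. A lower mean was found for 12 of the 14, where 53.5% of all genes had one, and 1 of them, Ina, fell (limma adjusted p = 0.0199). The 11 measured of 12 microglia markers lay between 6.09 and 7.79, and 0 passed in limma, none with an unadjusted p under 0.05. The endothelial and mural list and the fibroblast and meninges list, with 11 of 12 measured in each, held 1 gene each that fell, Pdgfrb and Thbs1. Of 14 astrocyte markers all were measured, at 6.01 to 13.3. The mean over the astrocyte list was 9.61 to 9.82 in Cugbp1_shRNA arrays and 9.81 to 9.82 in control_shRNA arrays. Of its members 0 passed in limma, and 3 had an unadjusted p under 0.05. Of 12 oligodendrocyte lineage markers 11 were measured. Their mean was 9.24 to 9.64 in Cugbp1_shRNA arrays and 9.21 to 9.73 in control_shRNA arrays. A higher mean was found for 8 of the 11, where 46.5% of all genes had one. In limma 0 of these 11 passed and 0 had an unadjusted p under 0.05. The mean over 10 measured neural progenitor markers was 9.07 to 9.34 in Cugbp1_shRNA and 9.01 to 9.29 in control_shRNA arrays, and 1 of them, Hopx, passed. Among all genes 3.94% passed, 1.1% higher and 2.84% lower, and 18.8% had an unadjusted p under 0.05 in limma. In lists this short a single call is not read as a shift of a cell type. In bulk cultures fewer cells of a type and less RNA per cell cannot be told apart, and the part of cell composition in the results was not tested. P values measure the spread between these arrays, since the labels do not say whether the cultures were independent.

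The family held few genes past the threshold. Fgfbp3 was the member with the largest difference, at 34.0% of its control level, and the adaptors Frs3 and Frs2 differed in opposite directions. The 5 receptors and the 17 measured secreted and endocrine ligands with at least 3 probe sets held no gene that passed. Over the 29 tested genes other than Fgfbp3, 0 rose and 1 fell in limma at an adjusted p under 0.05, Frs3, a share of 3.45%. Among all 16524 genes 651 passed, which is 3.94%. An unadjusted p under 0.05 was found for 6 of the 29, 2 higher and 4 lower, where 18.8% of all genes had one, 7.52% higher and 11.3% lower. The median log2 change was -0.056 over the 29 genes and -0.015 over all genes, and the median absolute change was 0.11 and 0.13. The groups did not overlap for 7 of the 29, 3 higher and 4 lower, where 25.2% of all genes had no overlap.

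Same-numbered arrays of the 2 groups deviated together, so limma was also run with replicate number as a blocking factor, called the block below. With it 7 of the 29 genes passed, or 24.1%, where 23.2% of all genes did. Frs2, Fgf5, Fgf10 and Fgf16 were higher and Frs3, Fgf11 and Fgf14 lower by that fit.

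**Figure D1:**
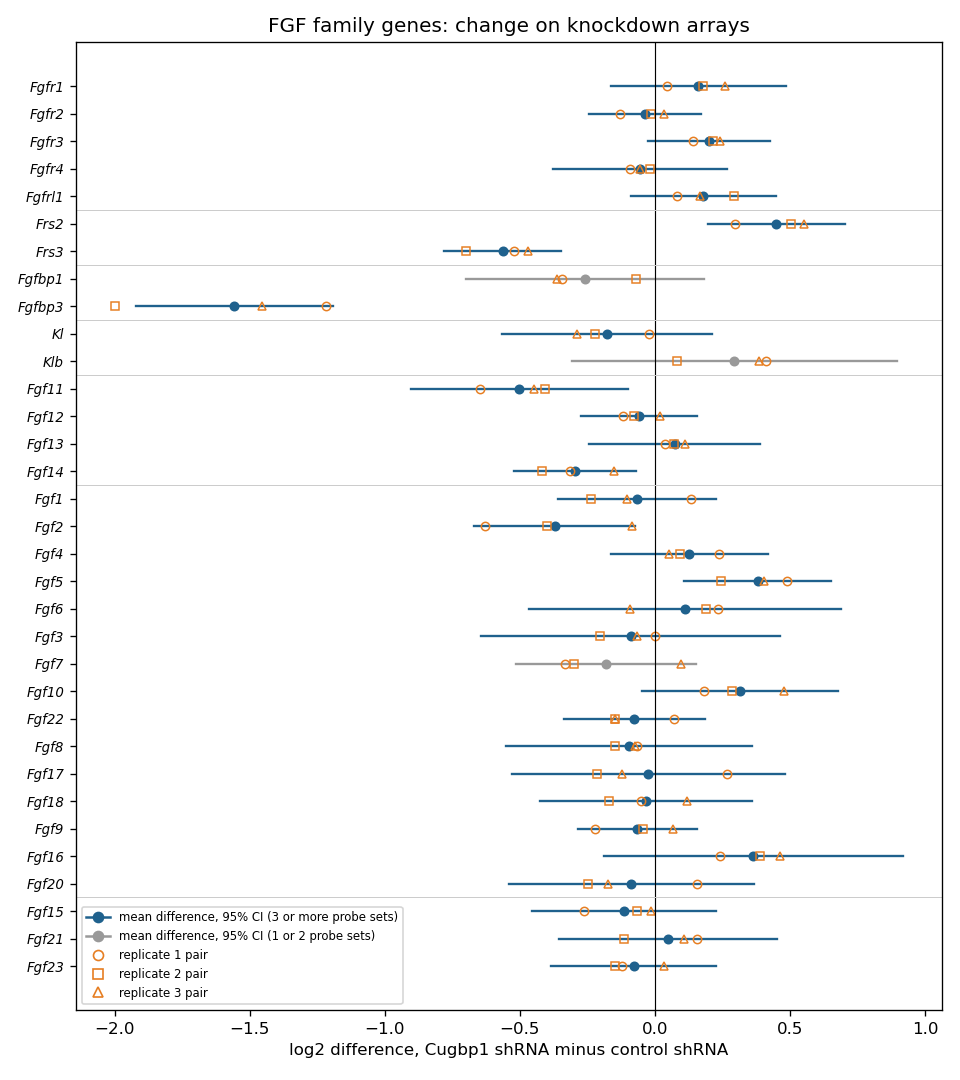
Log2 difference between Cugbp1 shRNA and control shRNA arrays (horizontal axis) for all 33 genes, with the 95% confidence interval of the fit as a line and the difference within each replicate pair as open symbols; receptors stand at the top and endocrine ligands at the bottom. Fgfbp3 lies apart at -1.56, Frs3 and Frs2 lie on opposite sides of 0, and most intervals of receptors and ligands cross 0. The interval drawn for Fgfbp3 does not allow for the selection of the family on that gene.

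The binding proteins differed from each other in size of change. Fgfbp3 carries FGFs away from heparan sulfate of the matrix. Its value was 8.37, 8.02 and 8.09 in replicates 1, 2 and 3 of Cugbp1_shRNA, against 9.59, 10.02 and 9.55 in control_shRNA. All 3 knockdown arrays lay more than 1 log2 unit below the lowest control array. The means were 8.16 ± 0.18 and 9.72 ± 0.26 (SD, n = 3 each). This is a log2 change of -1.56, or 34.0% of the control level. The family was selected on this difference, so the spread of the arrays is given and no test. Within pairs the difference was -1.22, -2.00 and -1.45 in replicates 1, 2 and 3, and it was -1.73 in replicates 2 and 3 alone, the arrays whose treatment text names Tdp-43. Leaving out single arrays moved it between -1.75 and -1.41.

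Fgfbp3 rests on 3 kept probe sets of 5, and they did not move alike. Probe set 4314528 differed by -1.75 and probe set 4903835 by -1.63, whereas probe set 5312449 differed by -0.51. For the last, the knockdown arrays read 8.41, 8.60 and 8.66 and the control arrays 9.31, 8.90 and 8.99, so the groups still did not overlap. Relative to the rest of its gene this probe set was 1.18 higher, with a standard error of 0.26. Of the 2 probe sets under the level filter, 4958743 differed by -1.44 and 5462564, at 2.27 in knockdown and 2.34 in control arrays, by -0.068. With those included the gene's change was -1.09. Positions of probe sets within the gene were not used here, and whether single probe sets respond weakly to target was not tested.

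Fgfbp1, the other binding protein, had 2 kept probe sets. It was at 7.15, 7.39 and 7.62 in Cugbp1_shRNA, against 7.49, 7.46 and 7.98 in control_shRNA. The groups overlapped, and the change of -0.26 (95% confidence interval -0.70 to 0.18) had an adjusted p = 0.613 in limma over 19956 genes with at least 1 kept probe set. That fit called 1.3% of its genes, 0.336% higher and 0.967% lower, and 0 of the 3 family members read from it, Fgfbp1, Fgf7 and Klb, of which 0 reached an unadjusted p under 0.05.

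**Figure D2:**
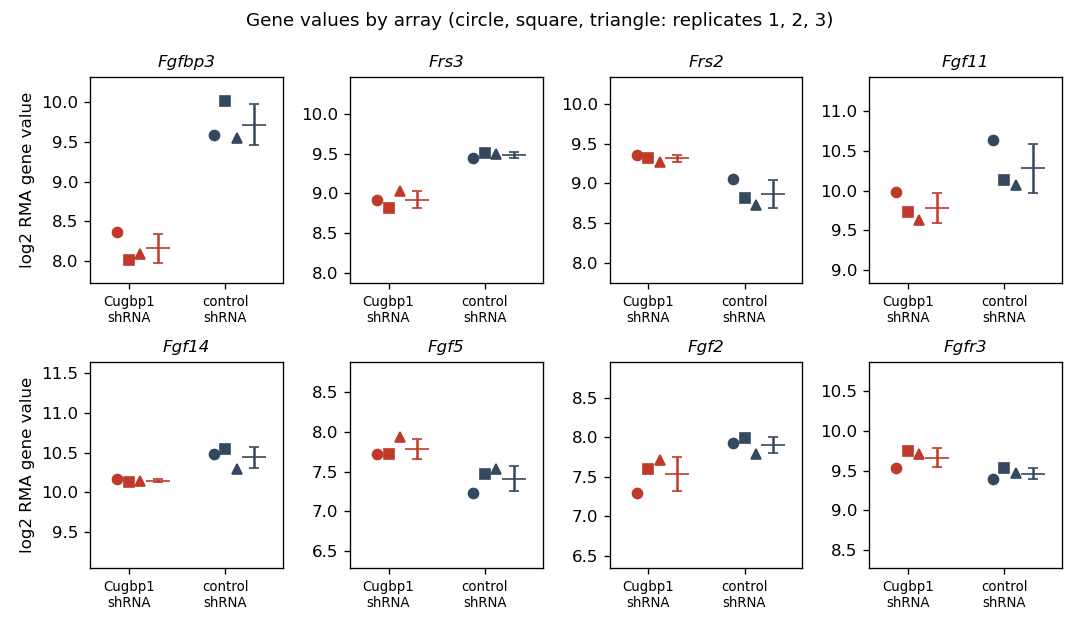
Log2 gene value (vertical axes, each spanning the same number of log2 units) on every array for 8 family genes, Cugbp1 shRNA at left and control shRNA at right in each panel, with the mean and SD of 3 arrays beside the points. These 8 are all the family genes whose groups did not overlap, 26.7% of the 30 with at least 3 kept probe sets. Among all genes 25.2% had no overlap. The gap is widest for Fgfbp3.

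The start-site regions of Fgfbp3 and of the adaptors Frs3 and Frs2 are shown because these 3 genes differed most clearly between the groups. RefSeq on build GRCm38.p6 gave 250 bases before and 50 bases after the start, and 26 of the 33 genes had such an entry. Capitals mark matches on either strand to a GC box, GGGCGG, bound by Sp1-type factors, to an ETS core, CCGGAAG, bound by factors that ERK can activate, and to a TATA box, TATAAA. Overlapping matches of a motif were counted separately. The Fgfbp3 region, minus strand of chr19:36919550-36919849, held 1 TATA box match and none of the others. That match is the reverse form, TTTATA, near the beginning of the printed sequence. Distances of matches from the start were not used. The Frs3 region, plus strand of chr17:47694957-47695256, held 5 GC box matches, and the Frs2 region, minus strand of chr10:117148425-117148724, held 2 GC box matches and 1 ETS core match. Among 32851 regions of this length 35.7% held the GC box, 8.86% the ETS core and 13.6% the TATA box. These shares are for at least 1 match and do not tell how often 5 or 2 matches occur. Any part of these motifs in the differences was not tested.
Fgfbp3: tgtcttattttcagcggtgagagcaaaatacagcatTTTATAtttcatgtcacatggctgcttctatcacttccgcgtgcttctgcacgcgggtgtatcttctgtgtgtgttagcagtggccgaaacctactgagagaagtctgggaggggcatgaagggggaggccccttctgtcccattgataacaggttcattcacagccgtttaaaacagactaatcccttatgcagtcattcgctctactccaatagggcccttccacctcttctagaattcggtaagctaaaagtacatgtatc
Frs3: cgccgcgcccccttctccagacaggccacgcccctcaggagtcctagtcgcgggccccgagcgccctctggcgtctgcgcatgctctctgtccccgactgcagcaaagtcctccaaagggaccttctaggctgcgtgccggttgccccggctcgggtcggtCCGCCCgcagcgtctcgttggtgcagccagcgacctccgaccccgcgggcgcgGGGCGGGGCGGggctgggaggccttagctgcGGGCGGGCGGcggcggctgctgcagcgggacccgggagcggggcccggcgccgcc
Frs2: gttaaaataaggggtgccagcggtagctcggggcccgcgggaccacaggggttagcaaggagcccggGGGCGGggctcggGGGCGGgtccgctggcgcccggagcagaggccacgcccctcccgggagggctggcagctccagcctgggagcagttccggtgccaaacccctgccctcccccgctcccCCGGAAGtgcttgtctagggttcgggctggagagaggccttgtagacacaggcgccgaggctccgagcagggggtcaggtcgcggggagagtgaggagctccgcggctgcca

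The adaptors went in opposite directions. Frs2 and Frs3 are related membrane-anchored docking proteins that link FGF receptors, and in neurons also neurotrophin receptors, to Grb2 and Shp2. Frs3 was at 8.92, 8.81 and 9.03 in Cugbp1_shRNA, against 9.44, 9.52 and 9.50 in control_shRNA. The groups stood apart on every array. Frs3 fell by 0.56 on the log2 scale (standard error 0.092, limma adjusted p = 0.0267), to 67.6% of control (95% confidence interval 58.2% to 78.5%). The differences were -0.52, -0.70 and -0.47 in replicates 1, 2 and 3. Without single arrays the change was -0.64 to -0.53, and it passed only without control replicate 1 (adjusted p = 0.0419), reaching 0.0659 to 0.142 in the other 5 cases.

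Of the 8 kept probe sets of Frs3 7 had a lower mean and 5 had groups that did not overlap, all lower. Probe sets of 1 gene share its transcripts and are not independent. Such counts, here and for Frs2, Fgf11, Fgf14 and Fgf5 below, therefore carry no test, and the share over all probe sets was not computed. The largest difference was -0.99 for probe set 4969306, where knockdown arrays read 8.30, 8.43 and 8.48 and control arrays 9.35, 9.36 and 9.46. Probe set 5007721 was the exception, with 6.83, 6.54 and 6.60 in knockdown and 6.57, 6.26 and 6.52 in control arrays. Its relative difference of 0.86 did not pass in diffSplice (adjusted p = 0.147) and did when blocked (adjusted p = 0.0262), where 2.3% of all probe sets passed. It had the lowest control mean, 6.45, of the kept Frs3 probe sets, and whether it responds weakly to target was not tested. With only the probe sets over the 75th percentile of all probe sets the gene's change was -0.86.

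Frs2 was at 9.35, 9.31 and 9.27 in Cugbp1_shRNA, against 9.06, 8.81 and 8.72 in control_shRNA. Every knockdown array was above every control array. The change was 0.45 (standard error 0.11, limma adjusted p = 0.0670, against 0.00932 when blocked), or 137% of control (95% confidence interval 115% to 163%). It was 0.30, 0.50 and 0.55 in replicates 1, 2 and 3, and 0.56 in replicates 2 and 3 alone (adjusted p = 0.0402). All 16 kept probe sets of Frs2 had a higher mean in the knockdown, from 0.010 to 0.69, and 10 of them had groups that did not overlap. As for Frs3, these counts are descriptions of probe sets that are not independent.

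**Figure D3:**
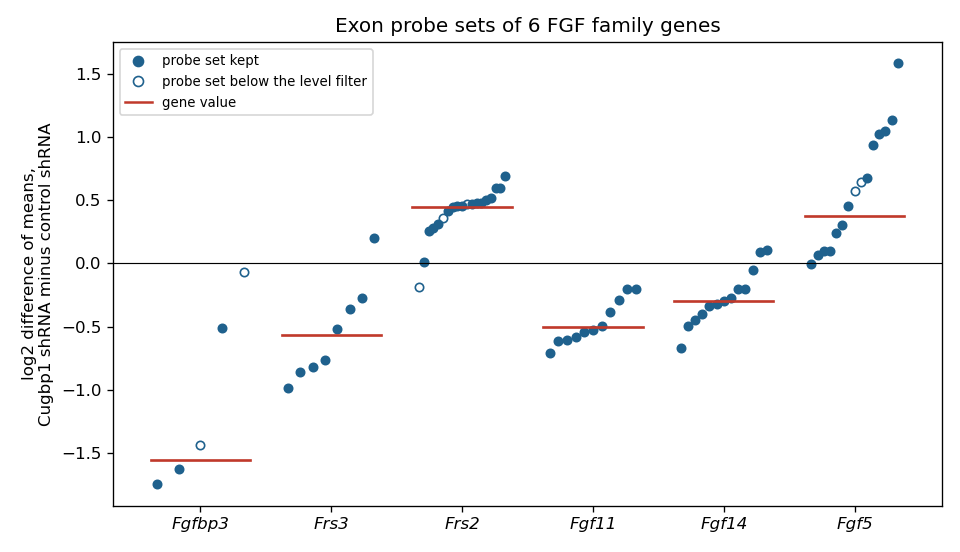
Difference of group means for each exon probe set (vertical axis, log2, Cugbp1 shRNA minus control shRNA) of 6 family genes, sorted within each gene; filled circles are kept probe sets, open circles lie below the level filter and the red line is the gene value. All kept Frs2 probe sets lie above 0 and all 11 Fgf11 probe sets below it, while those of Fgf5 spread from -0.007 to 1.58.

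The receptors showed small differences. Fgfr1, the main neuronal FGF receptor kinase, was at 10.03, 10.46 and 10.32 in Cugbp1_shRNA, against 9.98, 10.28 and 10.06 in control_shRNA, a change of 0.16 (95% confidence interval -0.16 to 0.48, limma adjusted p = 0.641). Fgfr2, a receptor of glia and progenitors among others, was at 9.16, 9.32 and 9.25, against 9.28, 9.33 and 9.22 in control_shRNA, a change of -0.037 (-0.24 to 0.17, adjusted p = 0.909). In both genes the groups overlapped.

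Fgfr3, known in the brain from progenitors and astrocytes, was the receptor with the smallest p. It was at 9.53, 9.75 and 9.72 in Cugbp1_shRNA, against 9.39, 9.53 and 9.47 in control_shRNA. Its lowest knockdown array and its highest control array were both at 9.53 when rounded, and the knockdown one was the higher. The change of 0.20 (95% confidence interval -0.03 to 0.43) did not pass (limma adjusted p = 0.336, against 0.0549 when blocked). In each of the 3 pairs the knockdown array was higher, by 0.14, 0.22 and 0.24.

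Fgfr4 was at 6.70, 6.94 and 7.09 in Cugbp1_shRNA, against 6.79, 6.96 and 7.15 in control_shRNA, a change of -0.056 (95% confidence interval -0.38 to 0.27, limma adjusted p = 0.912). Fgfrl1, a receptor that binds FGFs but lacks the kinase, was at 8.85, 9.15 and 9.14, against 8.77, 8.86 and 8.97 in control_shRNA, a change of 0.18 (-0.09 to 0.45, adjusted p = 0.490). Thus 0 of 5 receptors passed in limma, none had an unadjusted p under 0.05 and 0 with the replicate block. The upper ends of the intervals, 0.48 for Fgfr1, 0.43 for Fgfr3 and 0.45 for Fgfrl1, show the size of change these arrays leave possible.

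Exon usage of the receptors was examined because FGF receptors are known for alternatively spliced forms of the third immunoglobulin domain, which set ligand choice, and Celf1 acts in splicing. The 118 kept receptor probe sets were 31 of Fgfr1, 28 of Fgfr2, 29 of Fgfr3, 19 of Fgfr4 and 11 of Fgfrl1. Of the 118, 84 had a higher and 34 a lower mean in the knockdown, with differences of -0.52 to 0.48. In Fgfr1 27 of 31 and in Fgfr3 25 of 29 kept probe sets were higher, against 14 of 28 in Fgfr2 and 8 of 19 in Fgfr4. Probe sets of 1 gene share its transcripts and are not independent, so these counts carry no test.

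Relative to the rest of their gene, receptor probe sets differed by -0.48 to 0.45. By diffSplice 0 of 118 passed, 0 had an unadjusted p under 0.05, 0 passed with the replicate block and 0 by a splicing index, which tests each probe set minus its gene value with its own variance. Among all 247644 probe sets 0.0791% passed in diffSplice, 3.06% had an unadjusted p under 0.05 and 2.3% passed with the block. The smallest unadjusted p, 0.115, belonged to probe set 4661006 of Fgfr4, at 5.59, 6.61 and 5.66 in Cugbp1_shRNA, against 6.51, 5.75 and 7.15 in control_shRNA. These values cross between the groups. In Fgfr4 it was followed by probe sets 5424850, at 0.45 relative to the gene, and 5124865, at -0.40.

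The remaining ones of the 6 smallest p were all in Fgfr3. Probe sets 4869053, 5208447 and 5052018 were at -0.35, -0.33 and -0.32 relative to the gene, with a standard error of 0.25 each. Of these 6 only 5124865 had groups that did not overlap, at 7.13, 6.68 and 6.96 in Cugbp1_shRNA and 7.41, 7.31 and 7.38 in control_shRNA. Probe sets were not placed on exons here, so the alternative exons of the third immunoglobulin domain could not be picked out among them.

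**Figure D4:**
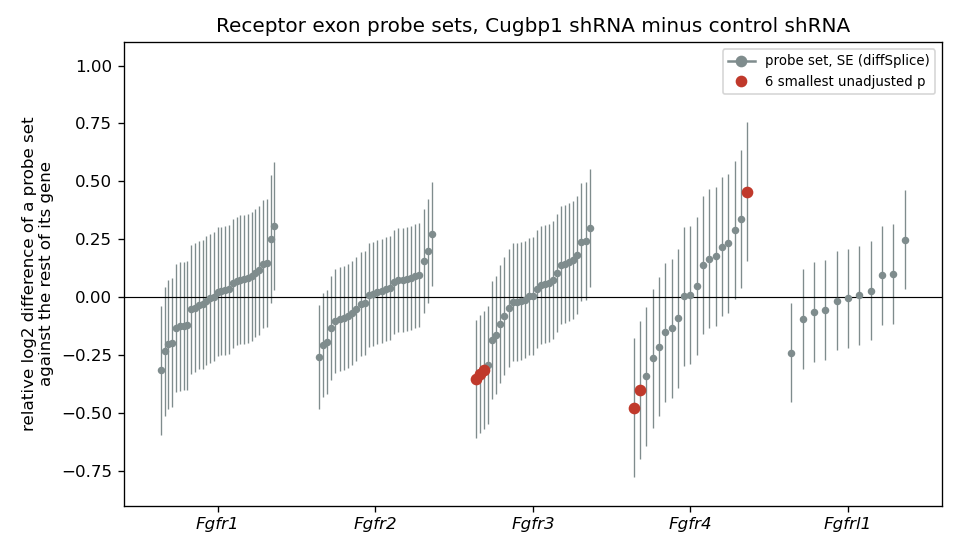
Relative log2 difference of each kept receptor probe set against the rest of its gene (vertical axis, Cugbp1 shRNA minus control shRNA, bars are standard errors from diffSplice), sorted within each receptor; red points are the 6 with the smallest unadjusted p. All 118 lie between -0.48 and 0.45, and those of Fgfr4 spread widest.

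Among the intracellular FGFs, Fgf11 and Fgf14 had lower values and Fgf12 and Fgf13 differed little. Fgf11 was at 9.99, 9.73 and 9.62 in Cugbp1_shRNA, against 10.64, 10.14 and 10.07 in control_shRNA. The groups did not overlap, and replicate 1 was the highest array of each group. The change of -0.50 (standard error 0.17) did not pass in limma (adjusted p = 0.167) and did when blocked (adjusted p = 0.00674), with pair differences of -0.65, -0.41 and -0.45. It was -0.31 without control replicate 1. All 11 probe sets of Fgf11 had a lower mean, from -0.71 to -0.20, and 7 had groups that did not overlap.

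Fgf14, whose human gene is mutated in a spinocerebellar ataxia, was at 10.16, 10.13 and 10.15 in Cugbp1_shRNA, against 10.48, 10.55 and 10.30 in control_shRNA. The knockdown arrays lay within a few hundredths of each other and below all controls. The change was -0.30 (standard error 0.096, limma adjusted p = 0.148, against 0.0319 when blocked). Of 13 probe sets 11 had a lower mean.

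Fgf12 was at 9.91, 10.08 and 10.05 in Cugbp1_shRNA, against 10.03, 10.15 and 10.04 in control_shRNA, a change of -0.060 (95% confidence interval -0.27 to 0.15). Its 18 probe sets, 2 of them listed under the older name B230343J05Rik, were 9 higher and 9 lower. Fgf13, which also binds microtubules in growing neurons, was at 10.73, 11.11 and 11.00, against 10.69, 11.04 and 10.89 in control_shRNA, a change of 0.073 (-0.24 to 0.39). Both had overlapping groups and adjusted p of 0.837 and 0.874 in limma. In Fgf13 probe set 4537780 was at -0.43 relative to its gene, which did not pass in diffSplice (adjusted p = 1.00) and did when blocked (adjusted p = 0.0333). Thus 0 of 4 intracellular FGFs passed in limma, 2 had an unadjusted p under 0.05, and 2 of 4 passed with the block, where 3.94%, 18.8% and 23.2% of all genes did. The pan-neuronal marker mean was also lower in the knockdown arrays, as given above, and its part in these values was not tested.

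Sodium channels and scaffolds that these proteins work with gave no gene past the threshold among 13 measured of 15 listed, with 1 at an unadjusted p under 0.05 in limma. The list's median change was -0.023, beside -0.015 over all genes. Scn3b, an auxiliary channel subunit, was at 11.91, 11.95 and 11.92 in Cugbp1_shRNA, against 12.15, 12.25 and 12.12 in control_shRNA (log2 change -0.25, limma adjusted p = 0.167, against 0.0295 when blocked). Ank3, the ankyrin of the axon initial segment, was at -0.17 (adjusted p = 0.345), and the scaffolds Mapk8ip1 and Mapk8ip2 at -0.13 (adjusted p = 0.475) and -0.16 (adjusted p = 0.573).

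Of the secreted ligands, 14 had at least 3 kept probe sets. In limma 0 of 14 passed and Fgf5 and Fgf2 alone had an unadjusted p under 0.05, and 9 had a lower and 5 a higher mean. Fgf5, a ligand known for limiting hair growth and also made in the brain, was at 7.72, 7.72 and 7.93 in Cugbp1_shRNA, against 7.23, 7.48 and 7.53 in control_shRNA. The groups did not overlap. The change was 0.38 (standard error 0.12, limma adjusted p = 0.127, against 0.0140 when blocked). It was 0.59 with the mean of probe sets in place of the median polish, and 0.23 without control replicate 1. The mean of probe sets includes probe set 5510450, kept through its knockdown arrays as described below, so the 0.59 is given without a test. The same probe set enters the median polish behind the 0.38, so its p values carry that limit. With the filter at the 75th percentile of all probe sets, which this probe set does not reach, the change was 0.28.

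The probe sets of Fgf5 were uneven. Of 13 kept, 12 had a higher mean and 7 had groups that did not overlap. Probe set 5510450 differed most, by 1.58, with 6.13, 7.16 and 6.94 in knockdown arrays and 4.89, 4.68 and 5.91 in control arrays. Against the rest of its gene it was 1.08 higher. Its control mean of 5.16 was under the level filter and its knockdown mean of 6.75 above it, so it was kept through the knockdown arrays and its difference is given without a test. Across the family 0 of 322 kept probe sets passed in diffSplice and 0 by the splicing index. An unadjusted diffSplice p under 0.05 was found for 9, where 3.06% of all probe sets had one. That count is a description, since 3 of the 9 are of Fgf5 and 2 of Fgfbp3. With the block 1 probe set each of Fgf13 and Frs3 passed, where 2.3% of all probe sets passed. The Fgf5 probe set above and those of Fgfbp3 are given without a test and are left out there.

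Fgf2, the basic FGF that supports progenitors, neurons and astrocytes, was at 7.30, 7.60 and 7.71 in Cugbp1_shRNA, against 7.93, 7.99 and 7.79 in control_shRNA. Every knockdown array was below every control array. The change was -0.37 (standard error 0.13, limma adjusted p = 0.168, against 0.0540 when blocked), with pair differences of -0.63, -0.40 and -0.08. It was -0.23 in replicates 2 and 3 alone, -0.23 without a level filter and -0.25 without Cugbp1_shRNA replicate 1. Fgf1, the acidic FGF of the same subfamily, was at 9.22, 9.28 and 9.32, against 9.09, 9.51 and 9.42 in control_shRNA, a change of -0.068 with overlapping groups (adjusted p = 0.872).

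Fgf10 and Fgf16 had overlapping groups but were higher in each of the 3 pairs. Fgf10, a ligand of mesenchyme and of cortical progenitors, was at 7.37, 7.76 and 7.47 in Cugbp1_shRNA, against 7.19, 7.48 and 6.99 in control_shRNA (log2 change 0.31, limma adjusted p = 0.345, against 0.0305 when blocked). Fgf16, known from heart, was at 6.39, 7.01 and 7.20, against 6.15, 6.63 and 6.74 in control_shRNA (log2 change 0.36, adjusted p = 0.494, against 0.0142 when blocked). Leaving out single arrays gave 0.19 to 0.43 for Fgf10, lowest without Cugbp1_shRNA replicate 2 or control replicate 3, and it was 0.54 in replicates 2 and 3 alone and 0.48 with the stricter level filter. Fgf16 ran from 0.16 without Cugbp1_shRNA replicate 3 to 0.61 without Cugbp1_shRNA replicate 1, was 0.19 without control replicate 1, and was 0.20 with means of probe sets. In Fgf16 the replicates differed more within a group than the groups from each other.

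Fgf8, Fgf17 and Fgf18, the subfamily known from midbrain and forebrain patterning, changed by -0.096, -0.024 and -0.033. Fgf8 was at 7.72, 8.09 and 8.29 in Cugbp1_shRNA, against 7.79, 8.24 and 8.37 in control_shRNA. Fgf17 was at 7.50, 7.44 and 7.91, against 7.24, 7.65 and 8.03 in control_shRNA. Fgf18 was at 8.16, 8.50 and 8.67, against 8.21, 8.67 and 8.55 in control_shRNA. All 3 genes had overlapping groups and adjusted p of 0.886 to 0.981 in limma.

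Fgf9, which neurons make and which acts on glia, was at 7.79, 7.86 and 7.84 in Cugbp1_shRNA, against 8.01, 7.90 and 7.77 in control_shRNA, and Fgf20 of its subfamily was at 6.33, 6.33 and 6.71, against 6.18, 6.58 and 6.89 in control_shRNA. Their changes were -0.066 and -0.089. Fgf22, known as a presynaptic organizer, was at 7.51, 7.51 and 7.63, against 7.44, 7.66 and 7.78 in control_shRNA, a change of -0.076 (95% confidence interval -0.34 to 0.18). In these 3 genes the groups overlapped.

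Fgf4 was at 8.90, 8.82 and 9.06 in Cugbp1_shRNA, against 8.66, 8.73 and 9.01 in control_shRNA, a change of 0.13. Fgf6 was at 6.79, 7.51 and 7.15, against 6.56, 7.32 and 7.25 in control_shRNA, a change of 0.11. Fgf3 was at 6.16, 6.39 and 6.86, against 6.16, 6.60 and 6.93 in control_shRNA, a change of -0.090. Groups overlapped in all 3, and their adjusted p ran from 0.699 to 0.920 in limma. Fgf7, the keratinocyte growth factor, rested on 2 of 8 probe sets, at 5.70, 5.96 and 6.17, against 6.04, 6.26 and 6.07 in control_shRNA (adjusted p = 0.651 in the fit over genes with at least 1 kept probe set).

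The endocrine ligands and their coreceptors did not pass. Fgf15, a gut hormone that is also expressed in embryonic brain, was at 6.18, 6.39 and 6.69 in Cugbp1_shRNA, against 6.45, 6.45 and 6.70 in control_shRNA. Fgf21, a metabolic hormone, was at 7.41, 7.44 and 7.87, against 7.26, 7.56 and 7.77 in control_shRNA. Fgf23, a phosphate hormone of bone, was at 8.91, 8.57 and 8.87, against 9.03, 8.72 and 8.84 in control_shRNA. Their changes of -0.11, 0.048 and -0.080 had adjusted p of 0.790 to 0.946 in limma, and groups overlapped in all 3.

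Kl, the alpha-klotho coreceptor of Fgf23, was at 6.27, 6.54 and 6.57 in Cugbp1_shRNA, against 6.29, 6.77 and 6.86 in control_shRNA, a change of -0.18 (limma adjusted p = 0.678), with 8 of its 21 probe sets kept. Klb, the coreceptor of Fgf15 and Fgf21, was at 6.85, 6.80 and 7.54 on 2 of 14 probe sets, against 6.44, 6.72 and 7.16 in control_shRNA, a change of 0.29 (adjusted p = 0.697 in the fit over genes with at least 1 kept probe set). Klb was higher in each of the 3 pairs, though the groups overlapped.

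Genes that carry the signal from the receptor held 1 gene past the threshold. Of 31 measured of 35 listed signalling genes 0 rose and 1 fell, where 1.1% of all genes rose and 2.84% fell, and the list's median change was 0.001. Crk, an adaptor that binds phosphorylated docking proteins, was at 10.33, 10.13 and 10.07 in Cugbp1_shRNA, against 10.85, 10.61 and 10.67 in control_shRNA. It fell by 0.54 (limma adjusted p = 0.0465), and did not pass when any 1 of the 6 arrays was left out (adjusted p = 0.107 to 0.245), nor with median centring (0.0523), without a level filter (0.0541) or with means of probe sets (0.103). Rps6ka1, an ERK-activated kinase, was at -0.42 (adjusted p = 0.0760), Pik3r1, a regulatory subunit of PI3K, at -0.32 (adjusted p = 0.161) and Shc3, a neuronal Shc adaptor, at -0.28 (adjusted p = 0.178). With the replicate block 4 of the 31 were higher and 5 lower, Crk, Rps6ka1, Pik3r1 and Shc3 among the lower, beside 9.31% and 13.8% of all genes.

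Feedback and early target genes of FGF and ERK signalling held 1 gene that rose. Of 19 genes 13 had a higher mean, beside 46.5% of all genes, and the median change was 0.21, beside -0.015 over all genes. In limma 1 rose and 0 fell, where 1.1% and 2.84% of all genes did. Dusp6, a phosphatase that switches ERK off, was at 9.89, 10.10 and 10.17 in Cugbp1_shRNA, against 9.50, 9.33 and 9.56 in control_shRNA. It rose by 0.59 (limma adjusted p = 0.0371), and did not pass when any 1 of the 6 arrays was left out (adjusted p = 0.0601 to 0.206). The receptor signalling inhibitors Spry1, Spred1 and Spred3 were at 0.36, 0.34 and 0.36 (adjusted p = 0.0897, 0.114 and 0.122), and their groups did not overlap. No overlap was found for 5 of the 19 list genes and 25.2% of all genes. Spry2 was at 0.12, Spry4 at 0.004, Spred2 at -0.20 and Spry3 at -0.21, none of them past the threshold, and these 4 were named after their values were seen. With the replicate block 6 were higher and 0 lower, beside 9.31% and 13.8% of all genes.

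The heparan sulfate list, whose products hold FGFs at the cell surface, went in both directions. Of 33 measured of 34 genes 1 rose and 2 fell, where 1.1% and 2.84% of all genes did, and the median change was -0.058. Sulf2, a sulfatase that trims heparan sulfate outside the cell, was at 11.29, 11.43 and 11.32 in Cugbp1_shRNA, against 11.79, 12.19 and 11.95 in control_shRNA. It fell by 0.63 (standard error 0.12, limma adjusted p = 0.0369). Gpc1, a glypican core protein, was at 9.65, 9.64 and 9.35, against 10.18, 10.26 and 10.03 in control_shRNA, and fell by 0.61 (adjusted p = 0.0378). Sdc2, a syndecan core protein of dendritic spines, was at 9.70, 9.98 and 9.95, against 9.11, 9.47 and 9.24 in control_shRNA, and rose by 0.60 (adjusted p = 0.0476). None of these groups overlapped, where 12 of the 33 list genes and 25.2% of all genes had no overlap. The genes were named for their small p, so this adds no support. Hs3st1, a sulfotransferase, was at -0.36 (adjusted p = 0.0934, against 0.0164 when blocked).

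Without single arrays Sulf2 stayed past the threshold only without control replicate 1, and Gpc1 and Sdc2 in none of the 6 cases. Gpc1 also lost its call in replicates 2 and 3 alone (limma adjusted p = 0.0539) and Sdc2 with median centring (adjusted p = 0.0518). With the replicate block 5 of the 33 were higher and 8 lower, beside 9.31% and 13.8% of all genes. Ndst4, a sulfotransferase of heparan sulfate synthesis, had the lowest change of the list at -0.73 and did not pass in limma (adjusted p = 0.163, against 0.00255 when blocked). It was named after its value was seen.

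Adhesion molecules reported to act with FGF receptors held 1 gene past the threshold. Of 9 measured of 10 genes 6 had a lower mean, beside 53.5% of all genes, and the median change was -0.11. In limma 0 rose and 1 fell, where 1.1% of all genes rose and 2.84% fell. Cntn2, an axonal contactin, was at 8.90, 9.06 and 8.94 in Cugbp1_shRNA, against 9.47, 9.77 and 9.48 in control_shRNA, and fell by 0.61 (limma adjusted p = 0.0353), though it did not pass when any 1 of the 6 arrays was left out (adjusted p = 0.0702 to 0.241) or in replicates 2 and 3 alone (0.0548). Cdh2, N-cadherin, was at -0.31 (adjusted p = 0.207, against 0.0184 when blocked), Ncam1 at -0.16 (adjusted p = 0.366) and Chl1 at -0.17 (adjusted p = 0.436). With the block 0 were higher and 2 lower, beside 9.31% and 13.8% of all genes.

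**Figure D5:**
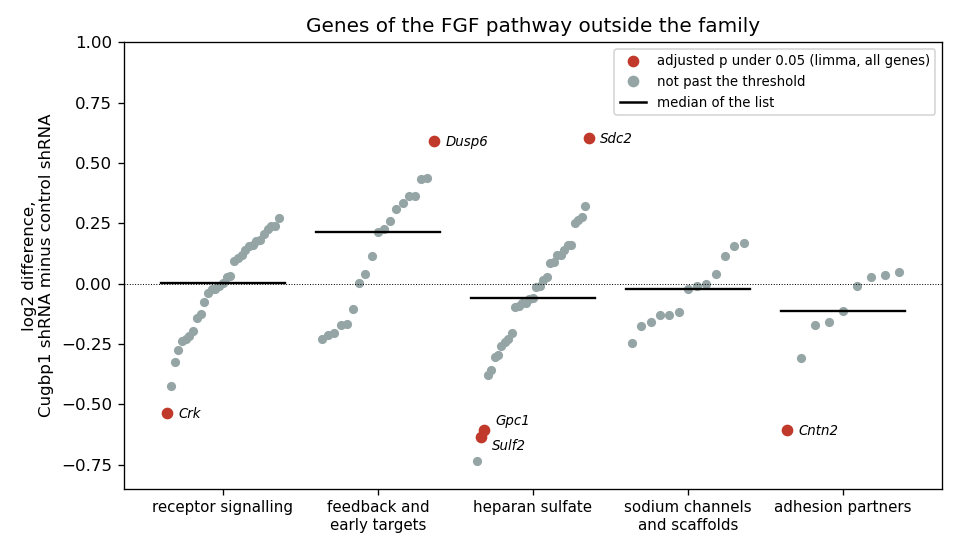
Log2 difference of each measured gene (vertical axis, Cugbp1 shRNA minus control shRNA) in 5 lists of FGF pathway genes outside the family, sorted within each list; red points passed at an adjusted p under 0.05 in limma over all genes and black lines are list medians. The 6 red points are Crk, Dusp6, Gpc1, Sulf2, Sdc2 and Cntn2, and the median of the feedback list, 0.21, is the highest of the 5.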

How the data were processed

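The authors deposited log2 RMA expression values, 1 per exon probe set and array, made with Affymetrix Expression Console according to the submitters' processing notes, which also name build mm9. Its version, and whether all arrays were normalized together, are not stated there. Column quantiles differed by at most 0.065, so values were used as deposited.

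Of 1195555 probe sets, 316997 had a single gene symbol, 6571 several, and 871987 were not listed. Of 22264 symbols 4213 were updated through synonyms in the RefSeq list of genes (GRCm38.p6) and 63 kept as given. Probe sets with a mean of at least the overall median were kept. Genes with at least 3 were summarised by Tukey median polish (16524 genes), and a wider fit took genes with at least 1 (19956). limma 3.58.1 in R 4.3.3 tested Cugbp1_shRNA minus control_shRNA over 6 arrays, two-sided, with Benjamini-Hochberg adjustment and a threshold of 0.05. diffSplice shares 1 variance among the probe sets of a gene, so noisy probe sets can be called by it. The gene fit without the block and diffSplice were tested on simulated data, the wider fit, the blocked fits and the splicing index were not. The gene fit recovered 8% of simulated log2 changes of 0.5 and 62% of changes of 1. A gene that did not pass may therefore have changed by 0.5. For probe set changes of 2, diffSplice recovered 95% with 14 false calls when variances were equal within a gene. With each probe set's own variance it recovered 97% with 1557 false calls. The R package data.table (1.17.8), matplotlib 3.10.9, pandas 2.3.3 and numpy 2.4.6 were also used.

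Replicate 1 carries no number and was taken by exclusion. Deviations from group means correlated across genes between same-numbered arrays at 0.76, 0.50 and 0.72, each the best match of its array, so the numbers were read as pairs. The alternatives were the replicate block, a block for the 2 forms of treatment text, replicates 2 and 3 alone, quantile normalization, median centring, no filter, a stricter filter, trend and robust variances, means of probe sets, a splicing index and leaving out each array.

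Named by rule are Celf1, all 33 members, the 4 genes of smallest p in each pathway list, and the 6 receptor probe sets of smallest p. The marker genes Ina, Pdgfrb, Thbs1 and Hopx were named because they passed. Spry2, Spry3, Spry4, Spred2, Ndst4 and the probe sets named in Fgfbp3, Frs3, Fgf5 and Fgf13 were also outside this rule. Members and lists were chosen with earlier results of these data known. Background correction could not be varied, since only summarised values were used.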

Additional observations from a re-analysis of the deposited data

How the results depend on the processing

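Only 3 arrays per group limit the precision, and signal over background is unknown. The 651 calls over all genes became 3827 with the replicate block, 2532 with a block for the form of treatment text, 1039 with the filter at the 75th percentile and 1089 with trend and robust variances. Leaving out single arrays gave 0 to 271. Of the 30 family genes with at least 3 kept probe sets, Fgfbp3 included, 2 passed, against 8 with the replicate block, 6 with the treatment text block and 0 to 3 without single arrays. The family was selected on Fgfbp3, so these family counts are descriptions. Counts over the other 29 genes are given above. The pathway lists held 6 calls, against 31 with the replicate block, 18 with the treatment text block and 0 to 1 without single arrays. Celf1 was at -1.43 to -1.32 without single arrays and lost its call in 5 of 6 cases. Other settings kept these counts within 1.5 times, and the 0 calls among Fgf7, Fgfbp1 and Klb and among receptor probe sets held in every setting run. Frs2 passed in 6 settings. The causes were not tested.

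Signs turned in 15 family genes, none of them past the threshold. In replicates 2 and 3 alone Fgf18 was at 0.078, Fgf21 at -0.0039, Fgf23 at 0.014, Fgf9 at 0.032, Fgfr2 at 0.031 and Fgfr4 at 0.012. Without a filter Fgf17 was at 0.0097, Fgf20 at 0.00016, Fgf21 at -0.057 and Fgf4 at -0.053, and with the stricter filter Fgfr4 was at 0.070. Leaving out single arrays gave -0.17 to 0.0085 for Fgf1, -0.023 to 0.21 for Fgf13, -0.20 to 0.025 for Fgf15, -0.21 to 0.19 for Fgf17, -0.18 to 0.16 for Fgf18, -0.27 to 0.076 for Fgf20, -0.11 to 0.17 for Fgf21, -0.15 to 0.11 for Fgf23, -0.32 to 0.12 for Fgf3, -0.029 to 0.20 for Fgf4, -0.13 to 0.30 for Fgf6, -0.25 to 0.048 for Fgf8, -0.11 to 0.015 for Fgf9, -0.051 to 0.0067 for Fgfr2 and -0.16 to 0.069 for Fgfr4.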
